A study of Mus musculus with 9 samples.

Results

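The genes described here are 10 members of the circadian clock, measured in the brain of male mice: the repressors Bhlhe40 and Bhlhe41, the activator Clock, the repressors Per1, Per2, Per3 and Cry1, the nuclear receptors Nr1d1 and Nr1d2, and the output gene Dbp. They were taken by gene symbol from the array annotation, each had 1 probe set, and all 10 were found among 19505 genes with a probe set of 1 symbol. The samples were 9 Clariom S mouse arrays, 3 for each of 3 groups. The first group was ob/ob mice (C57BL/6JHamSlc-ob/ob, which lack functional leptin) given a Vigna umbellata extract, VE, at 100 mg/kg by gavage. The second was ob/ob mice given vehicle, and the third was wild-type mice (C57BL/6JHamSlc-+/+) given vehicle. All animals were male, were 6 weeks old before 1 week of acclimatization, ate standard chow and were dosed for 42 days. The ob mutation is carried in all tissues of both ob/ob groups, and the labels name the tissue only as brain. The room had a cycle of 12 h of light, and the hour at which tissue was taken is not given in the sources used here.

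The mammalian clock is a feedback loop of transcription. The protein pair of CLOCK and BMAL1 (gene Arntl) binds E-boxes, short DNA sites with the letters CACGTG, and switches on the Per, Cry, Nr1d, Dbp and Bhlhe40 genes. PER and CRY proteins then block that pair, BHLHE40 and BHLHE41 compete with it at E-boxes, and the NR1D receptors (REV-ERB) repress Arntl through ROR response elements. DBP, with its relatives TEF and HLF, carries the rhythm to other genes through D-boxes. Because the mRNAs rise and fall over the day, a level in this family depends on the hour of sampling. In the brain the suprachiasmatic nucleus sets the rhythm, and Per1 and Bhlhe40 also respond to neuronal activity and hormones.

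Promoter stretches show where these sites lie in the members themselves. RefSeq promoters on GRCm38.p6 were at hand for 8 of the 10 members, in 11 windows. No promoter of Bhlhe40 or Per2 was at hand, so those genes were not searched. The 250 bases before each start were searched on both strands. The E-box CACGTG was present in 3 members, Bhlhe41, Cry1 and Per1, and in 6.02% of all 32851 promoter windows of that length. The related letters AACGTG were present in 2 members, Cry1 and Nr1d1, and in 3.85% of all windows. The D-box TTANGTAA was present in 1 member, Per3, and in 2.06% of all windows. The letters TAGGTCA of a ROR element and TGACGTCA of a cyclic AMP element were present in 0 member windows, against 2.23% and 1.55% of all windows. A match is a description of these letters and does not show binding. The stretches below carry the motif in capitals, on the strand of the gene and read 5′ to 3′.
Per1 E-box, chr11:69098763-69098808, plus strand: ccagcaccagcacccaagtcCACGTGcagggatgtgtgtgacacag
Cry1 E-box, chr10:85185089-85185134, minus strand: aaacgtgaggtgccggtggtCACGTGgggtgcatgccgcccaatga
Bhlhe41 E-box, chr6:145865548-145865593, minus strand: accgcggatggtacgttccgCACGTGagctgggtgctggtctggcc
Nr1d1 AACGTG, chr11:98775380-98775425, minus strand: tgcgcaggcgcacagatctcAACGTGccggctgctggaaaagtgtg
Per3 D-boxes, chr4:151044796-151044890, minus strand: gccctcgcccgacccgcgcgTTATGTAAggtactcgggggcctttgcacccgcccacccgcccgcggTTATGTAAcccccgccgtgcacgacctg

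The E-box began 166 bases before the start in Per1, 60 bases before it in Cry1 and 153 bases before it in Bhlhe41. Per3 carried its D-box letters at 2 places, 205 and 158 bases before the start.

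The arrays carried log2 signals of 22206 probe sets, and differences below are in log2 units. A probe set was called where the adjusted p of limma, over all probe sets, was under 0.05. Below, the unadjusted rule is that of the design text, p under 0.05 and a fold over 1.1. The second VE array stood apart. Pairs of arrays without it had Pearson's r of 0.979 to 0.993 over probe sets, and pairs that included it had 0.962 to 0.970, while its SD over probe sets was 2.38. That SD was 2.80 and 2.69 on VE arrays 1 and 3. It was 2.56 to 2.73 on the ob/ob vehicle arrays and 2.78 to 2.84 on the wild-type arrays. Every ob/ob vehicle array thus had a narrower spread than every wild-type array. The part of this spread in the differences below was not tested. Array medians ran from 7.01 to 7.23, and the lowest signal of any member on any array was 7.52. Markers of brain cells spanned a wide range of signals. All 8 neuronal, 8 astrocyte and 7 oligodendrocyte markers lay above the median level, with the neuronal gene Snap25 at group means of 17.04 to 18.38. Of 7 microglial markers 3 lay above it, and Aif1 averaged 6.00 to 6.41. Of 5 fat cell markers 0 lay above it, and Adipoq averaged 5.56 to 5.82. The series design text also names white adipose tissue, while the labels of all 9 samples name brain.

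Bhlhe40, a repressor that competes with CLOCK and BMAL1 at E-boxes, was the member that fell in ob/ob brain. Its signals were 12.69, 12.01 and 12.18 on the ob/ob vehicle arrays, against 13.66, 13.21 and 13.43 on the wild-type arrays. Every ob/ob vehicle array lay below every wild-type array, with a gap of 0.52 between the nearest pair. The mean was 12.29 ± 0.354 in ob/ob vehicle and 13.43 ± 0.225 in wild type (SD, n = 3 each), a difference of -1.14 (SE 0.222, limma adjusted p 0.0375), or 2.20-fold lower. The 95% interval of the difference was -1.62 to -0.66.

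With VE the Bhlhe40 signals were 12.78, 12.83 and 12.71, which lay between those of the other groups without overlapping either. The nearest pair of VE and ob/ob vehicle arrays was 0.02 apart. Against ob/ob vehicle the VE difference was 0.48 (SE 0.222, 95% interval -0.000161 to 0.96, limma adjusted p 0.375), and against wild type it was -0.66 (SE 0.222, 95% interval -1.14 to -0.18, limma adjusted p 0.258). Neither passed the threshold. After quantile normalization the VE signals were 12.58, 13.70 and 12.70, which overlapped both other groups, and the difference from wild type was -0.20 (SE 0.267, limma adjusted p 0.811). These comparisons share arrays with the one before, so their values are not independent of it.

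The Bhlhe40 difference lay below 0 in all 18 alternatives, and its call depended on single arrays. Many of these alternatives could not turn its sign. Several change only the test or the set of probe sets, and leaving out a VE array does not touch this difference. With groups that did not overlap, leaving out 1 other array could not turn it either. The call was lost without any one ob/ob vehicle array (limma adjusted p 0.0540, 0.150 and 0.196 for the 3 arrays in order), without any one wild-type array (0.145, 0.0909 and 0.140) and without VE array 3 (0.0517). After quantile normalization the difference was -0.82 (SE 0.267, limma adjusted p 0.123), and no member was then called.

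**Figure D1:**
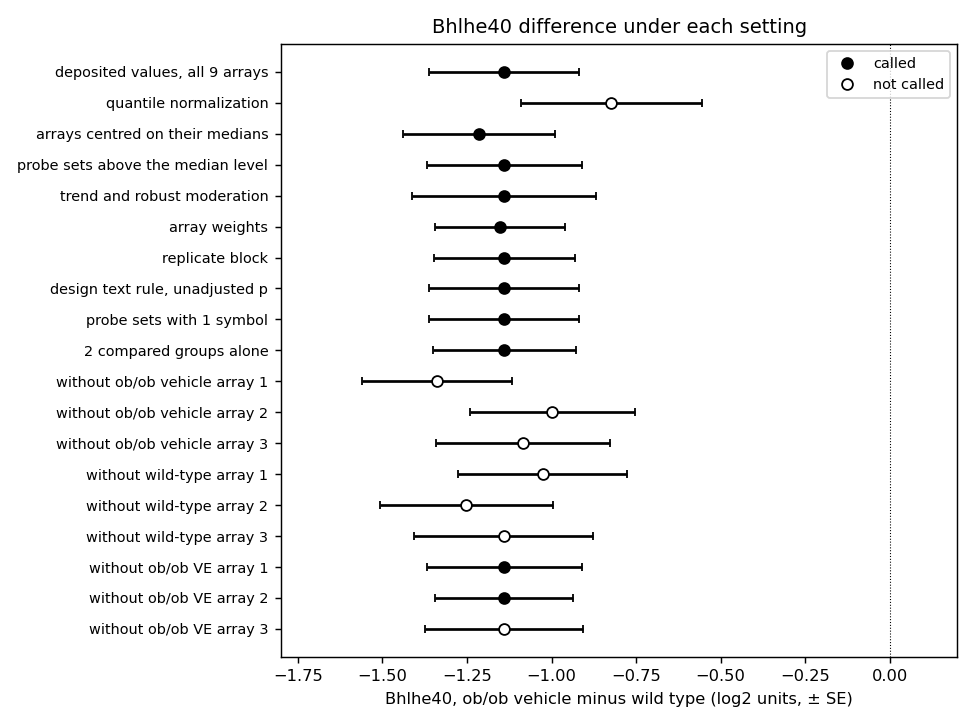
Difference of Bhlhe40 between ob/ob vehicle and wild-type brain (log2 units, horizontal axis, with SE) for the deposited values and 18 alternatives (vertical axis). All points lie below 0, from -1.34 to -0.82, and filled points mark settings in which the gene was called.

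Of the 10 members 1 was called in ob/ob vehicle against wild type, Bhlhe40, while 1.27% of all probe sets were called in that comparison. The median difference of the members was -0.21, with 3 members above 0 and 7 below, against 0.02 over all probe sets. All 10 members had a mean signal above the median level, and the 11103 probe sets above it also had a median of -0.21 to 2 decimals. In VE against ob/ob vehicle 0 of 10 members were called by limma (2 at the unadjusted rule), beside 0.486% of all probe sets, and the median was 0.03 against -0.07 over all. In VE against wild type 0 of 10 members were called by limma (1 at the unadjusted rule), beside 0.0991% of all probe sets, with medians of -0.16 and -0.07. Over probe sets above the median level those medians were -0.05 in VE against ob/ob vehicle and -0.23 in VE against wild type, both below the medians of the members. Of the 30 member differences 25 moved by over 1.5 times in at least 1 alternative, 22 of them after quantile normalization. The 5 that did not were those of Bhlhe40 and Cry1 in ob/ob vehicle against wild type and of Bhlhe40, Per2 and Cry1 in VE against ob/ob vehicle.

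**Figure D2:**
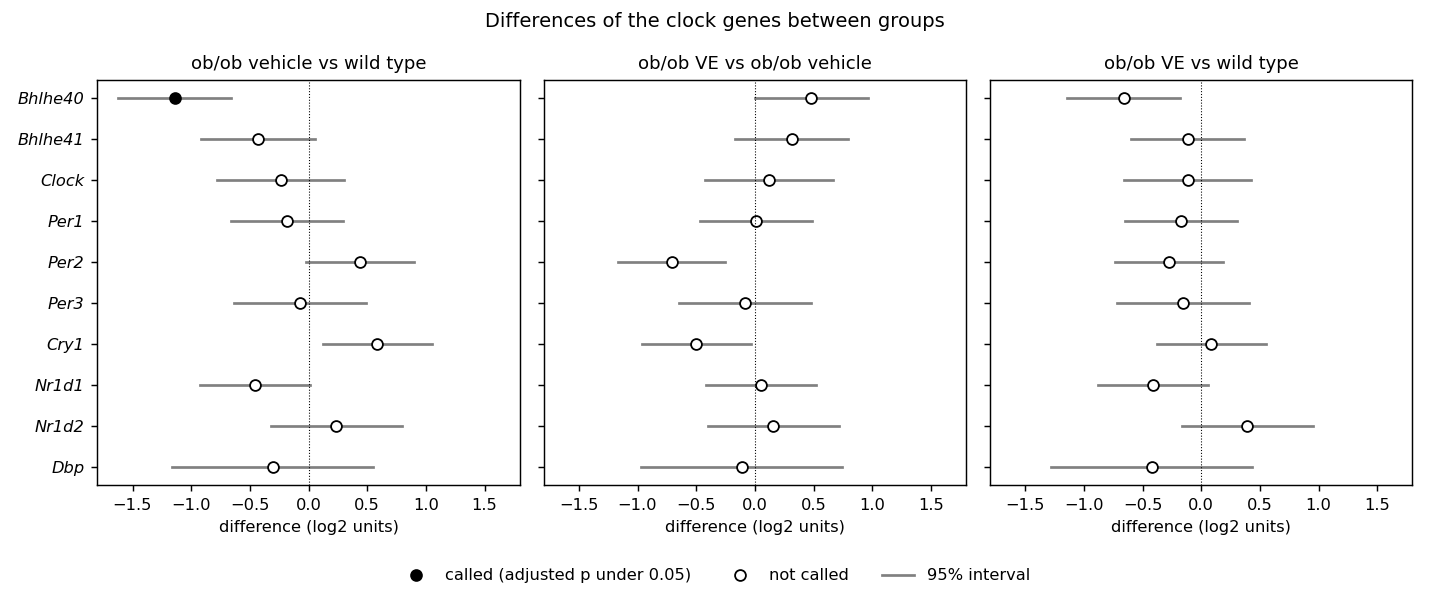
Differences of the 10 clock genes (log2 units, horizontal axis) in the 3 comparisons, each the first named group minus the second, with 95% intervals from limma. Bhlhe40 in ob/ob vehicle against wild type, at -1.14, is the filled point, and the intervals of most other members span 0.

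Probe sets of a like signal also lay lower in ob/ob vehicle. The 591 probe sets whose mean signal lay within 0.5 log2 units of that of Bhlhe40 had a median difference of -0.31, and 1.18% of them were called. A difference below that of Bhlhe40 was held by 0.846% of them. Markers of several brain cell types lay lower too. Over all probe sets 1.27% were called in this comparison and 20.1% passed the unadjusted rule. Among 8 astrocyte markers, 3 were called lower in ob/ob vehicle than in wild type (Sox9, Gfap and Aqp4). The mean signal of that list was 10.84 to 11.48 on the VE arrays, 10.95 to 11.29 on the ob/ob vehicle arrays and 11.85 to 12.00 on the wild-type arrays. Of 7 choroid plexus markers 2 were called lower (Folr1 and Kl), with list means of 8.66 to 9.59 with VE, 8.28 to 9.54 in ob/ob vehicle and 9.64 to 10.75 in wild type. Of 7 oligodendrocyte markers 1 was called lower, Cldn11, with list means of 9.73 to 11.10 with VE, 10.26 to 10.75 in ob/ob vehicle and 11.17 to 11.99 in wild type. Of 7 microglial markers 1 was called lower, C1qb, with list means of 7.45 to 7.77 with VE, 7.42 to 7.58 in ob/ob vehicle and 7.96 to 8.28 in wild type. Of 8 neuronal markers 0 were called by limma (4 lower at the unadjusted rule), with list means of 12.83 to 14.50 with VE, 13.70 to 14.24 in ob/ob vehicle and 14.52 to 14.82 in wild type. Of 6 endothelial markers 0 were called and 0 passed the unadjusted rule, with a median difference of -0.28 and 1 above 0. Of 7 cerebellar markers 1 was called lower, Car8, with a median of -0.19 and 2 above 0. The part of these shifts in the fall of Bhlhe40 was not tested. In bulk brain RNA, fewer cells of a type and less RNA per cell cannot be told apart. The ob/ob vehicle arrays also had a narrower SD over probe sets, 2.56 to 2.73 against 2.78 to 2.84 in wild type. The part of that spread in the marker shifts was not tested.

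Bhlhe41, the closest relative of Bhlhe40 and also an E-box repressor, did not pass. Its signals were 11.29, 10.83 and 10.74 in ob/ob vehicle, against 11.70, 11.25 and 11.20 in wild type. One ob/ob vehicle array, the first, lay above 2 wild-type arrays, so the groups overlapped. The difference was -0.43 (SE 0.224, 95% interval -0.91 to 0.05, limma adjusted p 0.301), and -0.17 after quantile normalization. With VE the signals were 11.39, 11.09 and 11.32, a difference of 0.31 from ob/ob vehicle (SE 0.224, limma adjusted p 0.585). The difference from wild type was -0.12 (SE 0.224, limma adjusted p 0.857), and 0.21 after quantile normalization.

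Clock, the DNA-binding partner of BMAL1, had signals of 14.70, 14.69 and 14.43 in ob/ob vehicle, against 14.84, 14.89 and 14.80 in wild type. The groups did not overlap, with a gap of 0.10. The difference was small, -0.24 (SE 0.251, 95% interval -0.78 to 0.30, limma adjusted p 0.626), and it was 0.13 after quantile normalization. With VE the signals of Clock were 15.16, 14.13 and 14.89, and the second VE array was the lowest of all 9.

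Per2, a repressor of the CLOCK and BMAL1 pair, was highest on the ob/ob vehicle arrays. Its signals with VE were 7.54, 7.58 and 7.70, against 8.46, 8.29 and 8.20 in ob/ob vehicle. Every VE array lay below every ob/ob vehicle array, with a gap of 0.50. The difference was -0.71 (SE 0.213, 95% interval -1.17 to -0.25), or 1.64-fold lower, and it did not pass over all probe sets (unadjusted p 0.00532, limma adjusted p 0.158). In wild type the signals were 7.52, 7.93 and 8.19, so that the VE and wild-type groups overlapped. The ob/ob vehicle arrays lay above the wild-type arrays by a gap of 0.01, with a difference of 0.44 (SE 0.213, 95% interval -0.02 to 0.90, limma adjusted p 0.270).

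Cry1, which joins the PER proteins in that repression, was also highest on the ob/ob vehicle arrays. Its signals were 8.46, 8.32 and 8.56 in ob/ob vehicle, against 7.99, 7.67 and 7.92 in wild type. The groups were separate by 0.33, and the difference was 0.59 (SE 0.215, 95% interval 0.12 to 1.05, unadjusted p 0.0173, limma adjusted p 0.158). That difference was called with the 2 compared groups alone (limma adjusted p 0.0479), without VE array 2 (0.0447) and with array weights (0.0302). Those settings called 2626, 2975 and 3601 of all 22206 probe sets in this comparison, in that order, against 281 in the main fit. The VE arrays held 8.29, 7.64 and 7.91, all below the ob/ob vehicle arrays by at least 0.03. The difference of VE from ob/ob vehicle was -0.50 (SE 0.215, 95% interval -0.96 to -0.0350, unadjusted p 0.0370, limma adjusted p 0.332).

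Per1 and Per3, the other PER repressors, showed overlapping groups in all 3 comparisons. Per1 had 8.60, 8.61 and 8.43 with VE, against 8.87, 8.45 and 8.29 in ob/ob vehicle, and its wild-type signals were 8.93, 8.41 and 8.82. The Per1 difference of ob/ob vehicle from wild type was -0.18 (SE 0.221, 95% interval -0.66 to 0.29, limma adjusted p 0.674). Per3 had 9.36, 8.65 and 9.56 with VE, against 9.47, 9.37 and 8.98 in ob/ob vehicle, and its wild-type signals were 9.62, 9.15 and 9.26. The Per3 difference of ob/ob vehicle from wild type was -0.07 (SE 0.260, 95% interval -0.63 to 0.49, limma adjusted p 0.900), and 0.10 after quantile normalization. Whether Per1 and Per3 differ from Per2 in response was not tested.

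**Figure D3:**
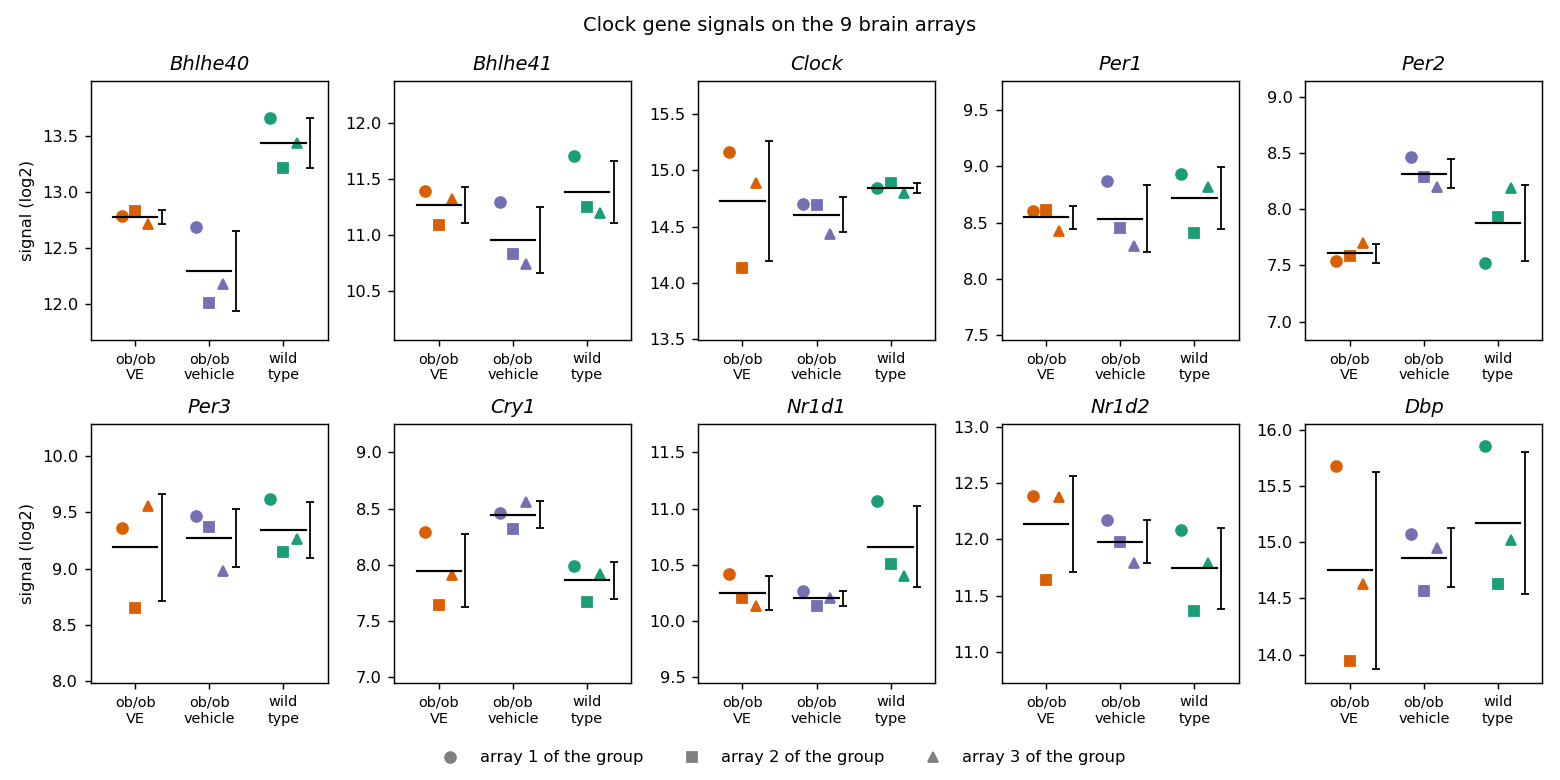
Signals of the 10 clock genes (log2, vertical axes, each spanning the same number of log2 units) on every array, for ob/ob VE, ob/ob vehicle and wild type from left to right. Lines are group means, bars are SD (n = 3), and marker shapes give the array of the group. On these deposited values the 3 groups of Bhlhe40 do not overlap, while Per2 and Cry1 are highest in ob/ob vehicle.

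Nr1d1, the REV-ERB alpha repressor of Arntl, had signals of 10.27, 10.13 and 10.20 in ob/ob vehicle, against 11.07, 10.51 and 10.40 in wild type. The ob/ob vehicle arrays lay below the wild-type arrays by 0.13 or more. The difference was -0.46 (SE 0.217, 95% interval -0.93 to 0.01, limma adjusted p 0.257), and -0.26 without wild-type array 1. With VE the Nr1d1 signals were 10.42, 10.20 and 10.13, a difference of 0.05 from ob/ob vehicle (SE 0.217, limma adjusted p 0.947). The difference of VE from wild type was -0.41 (SE 0.217, limma adjusted p 0.471).

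Nr1d2, the REV-ERB beta gene, had signals of 12.39, 11.64 and 12.38 with VE, 12.17, 11.98 and 11.79 in ob/ob vehicle, and 12.08, 11.36 and 11.79 in wild type. The groups overlapped in all 3 comparisons. The difference of ob/ob vehicle from wild type was 0.24 (SE 0.259, 95% interval -0.32 to 0.80, limma adjusted p 0.639). It was 0.52 after quantile normalization and 0.0450 to 0.41 when single arrays were left out. The difference of VE from wild type was 0.39 (SE 0.259, 95% interval -0.17 to 0.95, limma adjusted p 0.549), and 0.64 without VE array 2.

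Dbp, the D-box activator read as an output of the clock, had the largest SE of the 10 members. Its signals were 15.68, 13.94 and 14.63 with VE, against 15.07, 14.57 and 14.95 in ob/ob vehicle. In wild type they were 15.86, 14.63 and 15.02. The lowest signal was on VE array 2, the highest on wild-type array 1, and the groups overlapped in all 3 comparisons. The difference of ob/ob vehicle from wild type was -0.31 (SE 0.396, 95% interval -1.16 to 0.55, limma adjusted p 0.696), and 0.10 after quantile normalization. The difference of VE from ob/ob vehicle was -0.11 (SE 0.396, 95% interval -0.97 to 0.74, limma adjusted p 0.934), and 0.29 without VE array 2.

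Groups that did not overlap were common over the whole array. In ob/ob vehicle against wild type 5 members were separate, Bhlhe40, Clock and Nr1d1 lower and Per2 and Cry1 higher, beside 33.3% of all probe sets. In VE against ob/ob vehicle 3 members were separate, Bhlhe40 higher and Per2 and Cry1 lower, beside 16.5% of all. In VE against wild type 1 member was separate, Bhlhe40, lower, beside 16.8% of all. By the unadjusted rule 2 members passed in ob/ob vehicle against wild type (Bhlhe40 and Cry1), beside 20.1% of all probe sets. By the same rule 2 passed in VE against ob/ob vehicle (Per2 and Cry1), beside 13.3%, and 1 in VE against wild type (Bhlhe40), beside 12.2%. The 2 of 10 members in ob/ob vehicle against wild type are near that background, and nothing particular to the clock follows from these counts.

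Single arrays were high or low for many members together. The first ob/ob vehicle array held the highest signal of its group for 9 of 10 members, the exception being Cry1, and for 55.0% of probe sets above the median level. The first wild-type array was the highest of its group for 8 of 10 members, the exceptions being Clock and Per2, against 41.2% of such probe sets. The first VE array was the highest for 6 of 10, against 59.9%. Of 27 other clock genes, described below, 15 were highest on the first ob/ob vehicle array. The first wild-type array was highest for 15 of the 27 and the first VE array for 17. Per2 ran the other way in wild type, where array 1 held its lowest signal, 7.52. The labels do not say what sets these arrays apart.

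**Figure D4:**
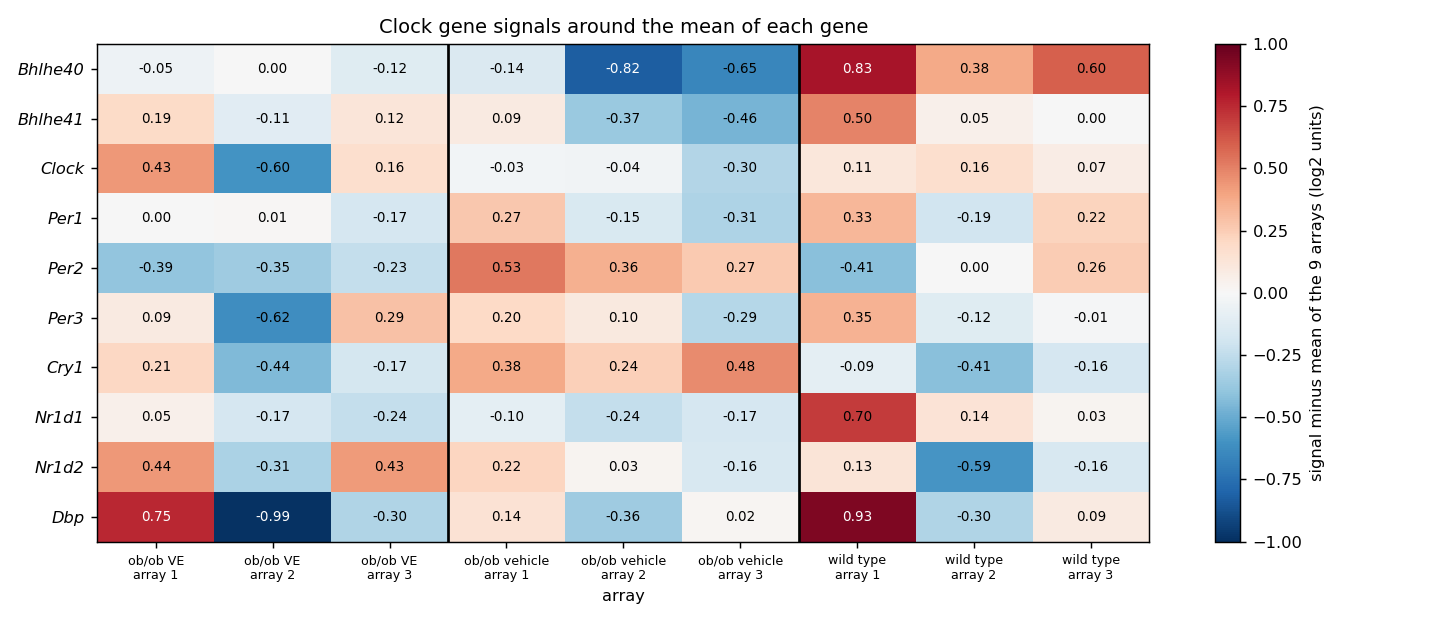
Signal of each clock gene minus its mean over the 9 arrays (log2 units, colour and printed value), with genes in rows and arrays in columns, ob/ob VE left of ob/ob vehicle and wild type. Bhlhe40 ran from -0.82 to 0.83 with the wild-type arrays on top, and Dbp was high on the first wild-type array at 0.93 and low on the second VE array at -0.99.

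The rest of the clock was read from a list of 33 symbols, of which 27 were in the annotation. None of the 27 was called by limma in any comparison, and at the unadjusted rule 7 were lower and 0 higher in ob/ob vehicle against wild type, beside 20.1% of all probe sets. Their median difference was -0.33 in that comparison, with 22 of 27 below 0, against a median of 0.02 over all probe sets and -0.21 over those above the median level, where 23 of the 27 lie. In VE against ob/ob vehicle the median was 0.06 and 1 of 27 passed the unadjusted rule, beside 13.3% of all probe sets. In VE against wild type the median was -0.18 and 4 of 27 passed it, beside 12.2% of all. Taken in either direction, these shares are near or below the background. The 7 and the 4 that passed against wild type were all lower. Over all probe sets, 2264 passed lower and 2193 higher in ob/ob vehicle against wild type. For VE against wild type those counts were 2046 lower and 661 higher. A lean of the list to lower values was not tested.

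Among activators, Arntl, the gene of BMAL1, had 9.54, 9.32 and 9.02 in ob/ob vehicle, against 9.89, 9.94 and 9.66 in wild type. The groups were separate, and the difference was -0.54 (SE 0.226, limma adjusted p 0.210). Rorb, a nuclear receptor that activates through ROR elements, had 10.17, 9.18 and 10.21 with VE, against 8.58, 8.53 and 8.77 in ob/ob vehicle. That was the largest difference of the list in this comparison, 1.23 (SE 0.265, limma adjusted p 0.0621), and it did not pass. A second Rorb probe set gave 0.36 (limma adjusted p 0.652), so the probe sets of Rorb differed in size. Of the 3 probe sets of Rora, another ROR receptor, the 2 brightest were at -0.64 and -0.57 in ob/ob vehicle against wild type and the third at 0.89, so that they disagreed in sign.

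Among output genes Hlf, a D-box activator like Dbp, had 10.30, 10.31 and 10.38 in ob/ob vehicle, against 11.77, 10.64 and 11.26 in wild type. The groups were separate and the difference was -0.89 (SE 0.271, limma adjusted p 0.103), the largest of the 27 in that comparison. Noct, a rhythmic gene named after its night peak, had 7.82, 6.98 and 7.73 with VE, against 8.38, 8.67 and 8.51 in wild type, a difference of -1.01 (SE 0.249, limma adjusted p 0.145). None of these passed, and the repressor Cry2 differed by -0.33 (SE 0.229, limma adjusted p 0.444) in ob/ob vehicle against wild type.

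**Figure D5:**
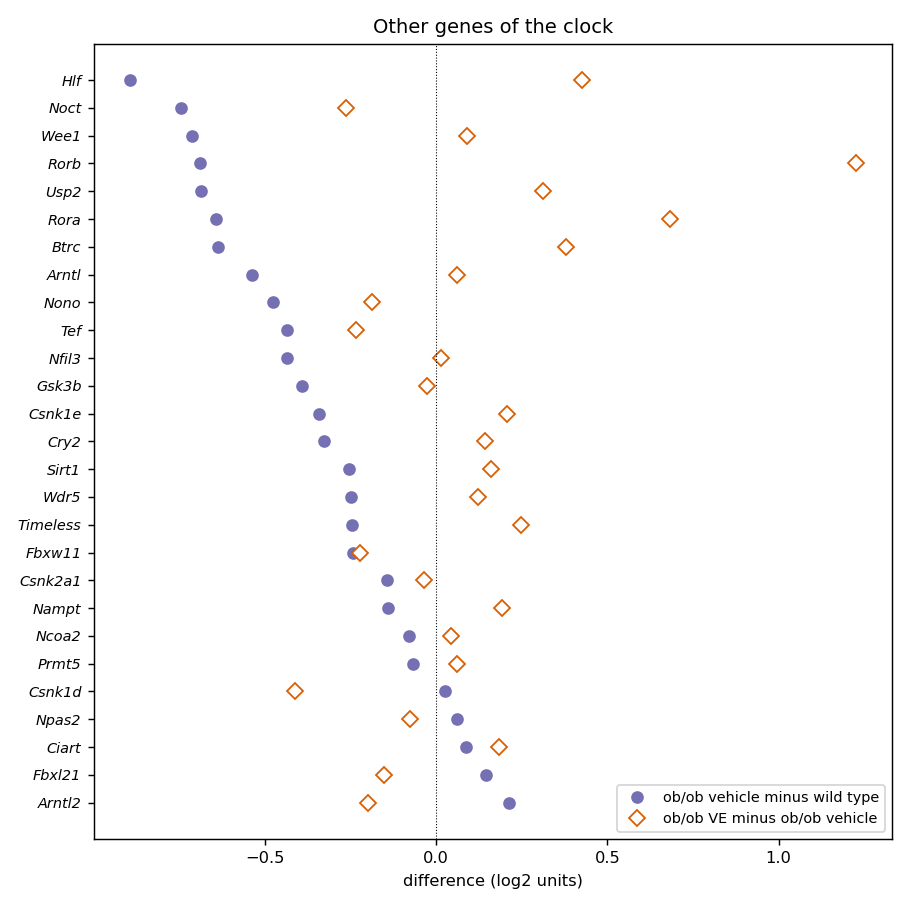
Differences of the 27 other clock genes (log2 units, horizontal axis), ordered by the difference of ob/ob vehicle from wild type (filled circles), with the difference of VE from ob/ob vehicle beside it (open diamonds). Both share the ob/ob vehicle arrays, 22 of 27 circles lie below 0, and Rorb has the largest diamond at 1.23.

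The genes most like Bhlhe40 over the 9 arrays were outside the clock. With each gene centred and divided by its SD over the arrays, the smallest root mean square difference from Bhlhe40 among 9219 genes above the median level was that of Atp6ap1, a subunit linked to the vacuolar proton pump, at 0.177 SD units. Stambp, a deubiquitinase, followed at 0.186, Uprt at 0.196, Eif3d, a translation initiation factor subunit, at 0.207, and the growth factor gene Igf2 at 0.211. Of these Igf2 was called in ob/ob vehicle against wild type, at -1.92 (limma adjusted p 0.0193), and the differences of the other 4 ran from -0.75 to -0.68 without a call. The genes most like Dbp were Dvl1 at 0.269, Plppr3 at 0.277, Mbd3 at 0.277, Deptor at 0.300 and Plxnd1 at 0.317 SD units. The points share 9 arrays and their scaling, and nothing about shared control follows.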

How the data were processed

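Clariom S mouse arrays were read for 9 brain samples. Log2 signals were deposited by the authors, and per the labels and the design text they come from the SST-RMA method of Transcriptome Analysis Console 4.0.2. The genome build and any annotation filter are not given in the sources used here. The deposited log2 values were used without further scaling. All 9 arrays entered 1 limma 3.58.1 fit in R 4.3.3 with group means as coefficients, moderated by eBayes with 6 residual and 7.03 prior df, and p was adjusted by Benjamini-Hochberg over 22206 probe sets. The labels number the replicates without naming animals, so p-values measure the spread between these samples, which may be technical. The precision is limited by 3 arrays a group, and the median SE over probe sets was 0.240. Symbols came from the platform annotation: 19572 probe sets had 1 symbol and 2634 had none. A gene with several probe sets was represented by the brightest over all arrays. The text names all 10 members, up to 6 other clock genes by role, and the 5 genes most like Bhlhe40 and Dbp. Among those other clock genes, Hlf, Rorb and Noct each had the largest difference of the list in a comparison. The members and lists were chosen with earlier results of these data known. Promoter letters came from RefSeq on GRCm38.p6. The fit was tested on simulated data. Alternatives were quantile normalization, median centring, dim probe sets left out, trend and robust moderation, array weights, the replicate block, the 2 compared groups alone, the rule of the design text, 1-symbol probe sets and leaving out each array.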

Additional observations from a re-analysis of the deposited data

How the results depend on the processing

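In ob/ob vehicle against wild type the count of members called was 1, and it was 0 after quantile normalization and 2 with array weights, with the 2 compared groups alone and by the unadjusted rule of the design text (Bhlhe40 and Cry1). Leaving out 1 array at a time gave 0 to 2 members there, with 2 without VE array 2, and 0 in both other comparisons. In VE against ob/ob vehicle the count was 2 with array weights and 2 by the unadjusted rule (Per2 and Cry1). In VE against wild type it was 2 with array weights (Nr1d2 and Bhlhe40) and 1 by the unadjusted rule. Over all 22206 probe sets, array weights gave 3601, 3307 and 3286 calls in these 3 comparisons, in that order. The unadjusted rule gave 4457, 2962 and 2707, and the 2 compared groups alone gave 2626, 0 and 0. Array weights gave VE array 3 a weight of 6.70 and VE array 2 one of 0.145. The Bhlhe40 difference of ob/ob vehicle from wild type was -0.82 after quantile normalization and -1.34 to -0.998 when single arrays were left out, and its adjusted p by limma ran between 0.00170 and 0.196 across 18 alternatives. Of 540 single-gene values 488 kept direction and call, and 33 turned sign, all of differences that were not called. Several alternatives change only the test or the set of probe sets, so the direction there was fixed in advance. After quantile normalization those in ob/ob vehicle against wild type were Clock 0.13, Per3 0.10 and Dbp 0.10. In VE against ob/ob vehicle Dbp was then 0.14, and in VE against wild type Bhlhe41 was 0.21, Clock 0.54, Per1 0.0213, Per3 0.0526 and Dbp 0.25. With arrays centred, Per3 was 0.04 and Dbp 0.01 in VE against ob/ob vehicle. With array weights Per1 was -0.0466, Per3 0.29 and Nr1d1 -0.0389 in that comparison, and in VE against wild type Clock was 0.0560 and Per3 0.22. Leaving out arrays, the ob/ob vehicle difference from wild type ran from -0.17 to 0.0767 for Per3 and from -0.58 to 0.0383 for Dbp. The VE difference from ob/ob vehicle then ran from -0.10 to 0.42 for Clock, -0.11 to 0.18 for Per1, -0.27 to 0.19 for Per3, -0.0350 to 0.11 for Nr1d1 and -0.58 to 0.29 for Dbp. The VE difference from wild type ran from -0.21 to 0.0417 for Bhlhe41, -0.33 to 0.18 for Clock, -0.34 to 0.12 for Per3 and -0.0850 to 0.24 for Cry1. The cause was not tested. Over all probe sets the 281 calls in ob/ob vehicle against wild type were 631 after quantile normalization and 0 to 2975 when 1 array was left out, with the highest count without VE array 2. The share of higher calls was 119 of 281, and 381 of 631 after quantile normalization. With the replicate block the Bhlhe40 call held and the counts of members called were 1, 0 and 0, against 251, 144 and 2 calls over all probe sets. The labels do not say whether same-numbered arrays are linked. Their deviations from the group means correlated at -0.03 to 0.33, and those of differently numbered arrays at -0.29 to 0.11. The highest values, 0.33 for number 1 and 0.22 for number 2, were both in VE against ob/ob vehicle. What same-numbered arrays may share was not tested. With 3 arrays a group, differences with an SE near 0.2 leave wide intervals.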

Other observations

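Lists of genes that share inputs with Bhlhe40 and Per1 were read beside the clock, and the single genes named here were chosen after their values were seen. Of 15 immediate early genes, which respond to neuronal activity within minutes, 1 was called lower in VE against ob/ob vehicle, Nr4a2, at -1.82 (SE 0.267, limma adjusted p 0.0334), beside 0.486% of all probe sets called. Their median difference was -0.42 with 13 of 15 below 0, against -0.07 over all probe sets. The Nr4a2 call did not hold in every alternative. In that comparison 0 probe sets were called among those with 1 symbol, with the 2 compared groups alone, or without any one ob/ob vehicle array. In ob/ob vehicle against wild type 0 of 15 were called by limma and 0 passed at the unadjusted rule, and the median was -0.03. In VE against wild type 2 of 15 were called lower, beside 0.0991% of all probe sets. These were Nr4a2 at -1.63 (SE 0.267, limma adjusted p 0.0472) and Nr4a3 at -1.95 (SE 0.320, limma adjusted p 0.0472). After quantile normalization 0 probe sets were called in that comparison.

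Of 14 hypoxia targets 1 was called in ob/ob vehicle against wild type, Ndrg1, lower, at -1.46 (SE 0.293, limma adjusted p 0.0400), beside 1.27% of all probe sets called. The median of the list was -0.23, close to the -0.21 over probe sets above the median level, where 11 of the 14 lie. Of 12 glucocorticoid targets 0 were called by limma in that comparison (2 at the unadjusted rule), beside 20.1% of all probe sets at that rule, with a median of -0.24 and 10 of the 12 above the median level. Of 10 genes known from the suprachiasmatic nucleus 1 was called, Rgs16, lower, at -1.05 (SE 0.230, limma adjusted p 0.0467), while the median of that list was 0.17. Prok2, a secreted output signal of that nucleus, had 6.61, 6.53 and 6.64 in ob/ob vehicle, against 6.10, 5.90 and 5.76 in wild type, and did not pass (difference 0.67, SE 0.193, limma adjusted p 0.0891). With VE its signals were 6.15, 6.08 and 5.84. These signals lie below the array medians, where a low level limits the precision.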
